A study of Mus musculus with 16 samples.

Results

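Chemokines are small secreted or membrane-bound proteins that guide cells along gradients, and their receptors carry the signal inward through inhibitory G proteins. The account below follows the 54 genes of the array whose symbols begin with Ccl, Ccr, Cxcl, Cxcr, Cx3cl or Cx3cr and a number, 54 of 19505 genes measured. The name alone chose them, and 37 are ligands and 17 are receptors. Each gene is represented by the probe set with the highest mean over all 16 libraries, which left 1 choice to make, since Ccl21b alone had more than 1 probe set. Ccl21b and Ccl21c had identical values in every library. Ccl21a, Ccl21b and Ccl21c are near-identical copies, so their values are uncertain as measures of any single gene.

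The libraries came from olfactory mucosa of S100a5-tauGFP mice on the C57BL/6 strain, 24 animals of both sexes aged 7 to 12 weeks. All groups share that reporter line, in which green fluorescent protein (GFP) follows S100a5, a calcium-binding protein gene known to respond to activity in olfactory sensory neurons. Each mouse spent 40 h alone in clean, flowing air. From 26 h on, 10 s pulses came every 20 min and carried either isoamyl acetate mixed with whiskey lactone (odor) or filtered air alone (vehicle). Mucosae were dissociated in pools of 3 mice, 4 pools for each treatment, and each pool was sorted by fluorescence into 2 fractions. Every value below is therefore an average over the sorted cells of 3 animals, and in such bulk samples fewer cells of a type and less RNA per cell cannot be told apart.

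Titles and cell type tags name opposite fractions in all 16 samples. Groups here follow the titles, hence the words titled GFP+ and titled GFP- throughout. Should the tags be right instead, every fraction difference below changes its sign and keeps its size. S100a5 itself went against the titles. In the titled GFP+ libraries of odor replicates 1 to 4 its log2 values were 15.39, 15.11, 15.05 and 15.55, and in the titled GFP- libraries 16.04, 16.66, 16.55 and 16.48. In vehicle the titled GFP+ values were 14.59, 14.92, 16.37 and 15.47 and the titled GFP- values 16.44, 16.35, 14.99 and 16.27. S100a5 was thus lower in titled GFP+ in every pool except vehicle pool 3, whose pair of libraries ran the other way here and for the chemokine family. The odor difference was -1.16 ± 0.36 (SE, 4 pools), adjusted p = 0.0625 over all 16 libraries and 0.000588 over the 14 libraries without vehicle pool 3. Results are given with and without that pool.

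Mammalian chemokines are grouped by the spacing of their first cysteines into the CC, CXC and CX3C families, and most receptors bind several ligands of 1 family. Inflammatory ligands such as Cxcl2 and Ccl3 are switched on by NF-kB and draw in neutrophils and monocytes, while homeostatic ligands such as Cxcl12 position cells in resting tissue. In olfactory epithelium, macrophages and other leukocytes lie among neurons and sustentacular cells, and Cx3cl1, tethered to the neuronal membrane, is a known signal to cells that carry Cx3cr1.

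Cxcl1, Cxcl2 and Cxcl3 are neighbouring copies of 1 ancestral gene on chromosome 5, and they are shown because their upstream sequences share an NF-kB match while their fraction differences parted. Ccl9 is shown because it had the largest fraction difference of the ligands. The sequences are the 250 bases before each gene's start in RefSeq on build GRCm38.p6, written 5′ to 3′ along the gene, with capitals marking matches to 5 motifs searched on both strands: GGGANNTTC for NF-kB, TTGCNNAA for C/EBP, TGANTCA for AP-1, AGAGGAAGT for ETS factors and TATAAA for the TATA box.
Cxcl1 (chr5:90890995-90891244, plus strand): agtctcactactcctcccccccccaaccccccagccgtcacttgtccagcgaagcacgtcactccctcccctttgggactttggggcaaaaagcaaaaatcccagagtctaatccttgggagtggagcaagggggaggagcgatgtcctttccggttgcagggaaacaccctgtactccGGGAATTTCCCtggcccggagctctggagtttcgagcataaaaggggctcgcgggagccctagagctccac
Cxcl2 (chr5:90903649-90903898, plus strand): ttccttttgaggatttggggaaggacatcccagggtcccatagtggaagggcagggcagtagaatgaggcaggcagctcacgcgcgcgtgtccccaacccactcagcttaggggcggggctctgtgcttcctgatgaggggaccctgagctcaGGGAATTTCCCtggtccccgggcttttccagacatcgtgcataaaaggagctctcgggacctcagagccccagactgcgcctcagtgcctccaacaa
Cxcl3 (chr5:90785851-90786100, plus strand): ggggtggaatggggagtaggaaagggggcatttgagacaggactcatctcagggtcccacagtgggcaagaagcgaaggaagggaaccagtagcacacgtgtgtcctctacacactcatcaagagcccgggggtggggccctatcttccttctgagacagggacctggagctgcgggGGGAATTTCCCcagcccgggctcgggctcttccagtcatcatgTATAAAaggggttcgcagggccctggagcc
Ccl9 (chr11:83578637-83578886, minus strand): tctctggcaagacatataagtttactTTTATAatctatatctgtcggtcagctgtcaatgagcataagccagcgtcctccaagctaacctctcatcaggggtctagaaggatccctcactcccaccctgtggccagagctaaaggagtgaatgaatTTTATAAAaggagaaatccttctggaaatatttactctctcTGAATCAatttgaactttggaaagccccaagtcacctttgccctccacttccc
Cxcl1, Cxcl2 and Cxcl3 each hold GGGAATTTCCC, which is 2 overlapping NF-kB matches, 1 on each strand. It lies 97 to 87 bases before the start of Cxcl2, 71 to 61 before that of Cxcl1 and 73 to 63 before that of Cxcl3. Cxcl3 has a TATA match 30 to 25 bases before its start as well. Ccl9 has no NF-kB match, an AP-1 match at 53 to 47 bases and TATA matches in either orientation, those nearest its start overlapping at 94 to 87 bases. Over the same 250 bases of 32851 RefSeq promoters, the NF-kB letters occurred in 3.23%, the C/EBP letters in 9.56%, the AP-1 letters in 6.75%, the ETS letters in 0.798% and the TATA letters in 12.4%. Promoter entries matched 39 of the 54 genes by symbol, some with several entries. A gene is counted below if any of its entries held a match, while the percentages above count entries. NF-kB letters were found for 8 of the 39 (Ccl1, Ccr3, Cxcl1, Cxcl10, Cxcl2, Cxcl3, Cxcl9 and Cxcr2), TATA letters for 11, AP-1 letters for 5, C/EBP letters for 3 and ETS letters for 1. Of the 13 genes with an entry that were higher in titled GFP+ (below), 2 held the NF-kB letters (Cxcl2 and Cxcr2), 1 the AP-1 letters (Ccl9) and 2 the TATA letters (Ccl9 and Cxcr4). A match describes letters in this window and is not a bound site.

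The first comparison set titled GFP+ against titled GFP- within each treatment, the contrast for which the reporter line was sorted. A minority of the family was higher in titled GFP+, led by Ccl9, Ccr2, Cxcr4, Cxcr2 and Cxcl2, all best known from the traffic of leukocytes, while most of the family did not pass the test in either direction. In odor over 14 libraries, 15 of the 54 genes were higher and 2 were lower at an adjusted p under 0.05 (limma, Benjamini-Hochberg over 19505 genes), where 8.59% of all genes were higher and 4.59% lower (13.2% in either direction). In vehicle without pool 3, 13 were higher and 1 was lower, where 7.86% of all genes were higher and 3.32% lower (11.2% in either direction). The median difference of the 54 genes was 0.16 in odor and 0.06 in vehicle on the log2 scale, beside -0.08 and -0.10 over all genes. With each array centred on its median the split changed: 13 were higher and 18 lower in odor and 12 higher and 9 lower in vehicle, as the median difference of all genes moved to -0.43 and -0.46. The split of all 19505 genes changed too. With centred arrays 1344 of them were higher and 8734 lower in odor, and 1323 higher and 7074 lower in vehicle.

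Over all 16 libraries, 10 of the 54 were higher in odor and none was lower, where 4.57% of all genes were higher and 2.39% lower (6.97% in either direction), and 22 of the 54 had an unadjusted p under 0.05. Counts at an unadjusted p, here and below, stand without the share of all genes at that threshold. They are not read as results about the family. These 10 were Ccl5, Ccl6, Ccl9, Ccr1, Ccr2, Ccr9, Cxcl12, Cxcl2, Cxcr2 and Cxcr4. With the pool of mice as a block over 16 libraries none of the 10 passed (adjusted p from 0.161 to 0.173), and with centred arrays 11 were higher and 10 lower. Of all genes, 0 were higher and 2 lower with the block, and 1019 were higher and 4722 lower with centred arrays. Without odor titled GFP+ replicate 1, 2 or 3, or without odor titled GFP- replicate 1, 2, 3 or 4, 0 of the 54 passed. In each of these fits only 2 or 3 of all genes passed, so the loss was not particular to the family. Over the 14 libraries the block changed 1 call in each treatment, that of Ccl11. In vehicle over all 16 libraries limma called 0 of the 54 (0% of all genes). An unadjusted p under 0.05 was found for 11 of the 54, and the smallest adjusted p was 0.478. Without the titled GFP+ library of pool 3 alone, 10 of the 54 passed, where 915 of all genes were higher and 248 lower. Differences below are from the 14 libraries, with 4 odor and 3 vehicle pools, unless stated otherwise; the odor differences themselves are the same in both sets.

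**Figure D1:**
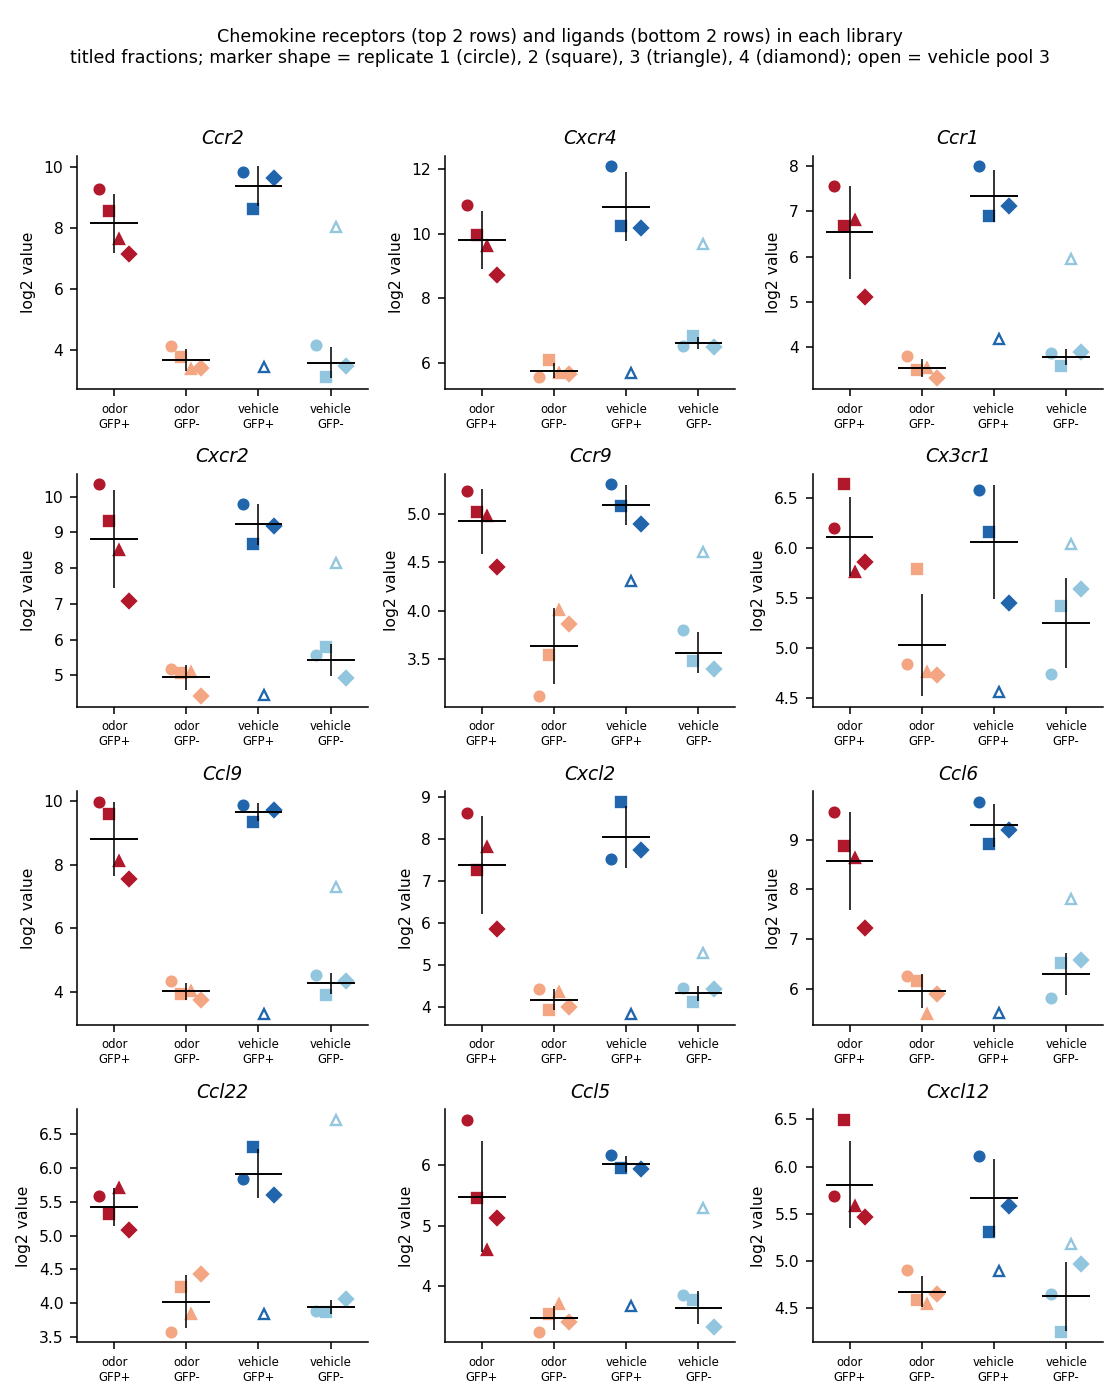
Log2 values of 6 receptors (upper panels) and 6 ligands (lower panels) in each library, by treatment and titled fraction; marker shapes give replicates 1 to 4, open triangles are vehicle pool 3, and black lines and bars are the mean ± SD without that pool. In each panel the titled GFP+ means lie above the titled GFP- means, and the open triangles lie in the opposite order.

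Of the 17 receptors, 6 were higher in titled GFP+ in odor and 5 in vehicle, and none was lower. Ccr2 is the receptor through which Ccl2 and Ccl7 draw monocytes out of the bone marrow. Its odor values for replicates 1 to 4 were 9.29, 8.54, 7.64 and 7.13 in titled GFP+ and 4.13, 3.75, 3.37 and 3.38 in titled GFP-. Its vehicle values were 9.83, 8.62, 3.42 and 9.66 in titled GFP+ and 4.14, 3.11, 8.03 and 3.47 in titled GFP-. The odor groups did not overlap, and in vehicle the pair from pool 3 alone was out of place. The difference was 4.49 ± 0.41 (SE, adjusted p = 1.16e-06) in odor and 5.79 ± 0.47 (adjusted p = 5.32e-07) in vehicle; over 16 libraries the odor adjusted p was 0.0426.

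Cxcr4, the receptor of Cxcl12, holds leukocytes and stem cells in their niches. Its odor values were 10.88, 9.95, 9.63 and 8.73 in titled GFP+ and 5.59, 6.10, 5.71 and 5.66 in titled GFP-. In vehicle the values were 12.07, 10.24, 5.69 and 10.18 in titled GFP+ and 6.54, 6.85, 9.69 and 6.50 in titled GFP-. Both treatments showed the same order apart from vehicle pool 3, with differences of 4.03 ± 0.42 (SE, adjusted p = 5.06e-06) in odor and 4.20 ± 0.48 (adjusted p = 1.97e-05) in vehicle. The odor adjusted p over 16 libraries was 0.0336.

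Cxcr2 is the receptor of neutrophils for Cxcl1, Cxcl2 and their relatives. Its odor values were 10.35, 9.31, 8.52 and 7.08 in titled GFP+ and 5.18, 5.07, 5.09 and 4.41 in titled GFP-. In vehicle it stood at 9.81, 8.67, 4.46 and 9.19 in titled GFP+ and at 5.57, 5.78, 8.15 and 4.93 in titled GFP-. Replicate 4 was the lowest of its odor group in both fractions, yet the groups stayed apart. The difference was 3.88 ± 0.50 (SE, adjusted p = 4.75e-05) in odor and 3.80 ± 0.58 (adjusted p = 0.000261) in vehicle; the odor adjusted p over 16 libraries was 0.0344. Cxcr1, its neighbour on chromosome 1 and a related receptor, differed by 0.36 in odor and 0.59 in vehicle and did not pass (adjusted p = 0.243 and 0.0892).

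Ccr1, a receptor of Ccl3, Ccl5, Ccl6 and Ccl9 on myeloid cells, had odor values of 7.55, 6.67, 6.80 and 5.11 in titled GFP+ and 3.81, 3.49, 3.55 and 3.31 in titled GFP-. Vehicle libraries stood at 7.99, 6.90, 4.19 and 7.12 against 3.87, 3.58, 5.94 and 3.90. The groups did not overlap without vehicle pool 3, and the difference was 2.99 ± 0.38 (SE, adjusted p = 4.23e-05) in odor and 3.55 ± 0.44 (adjusted p = 3.81e-05) in vehicle. The odor adjusted p over 16 libraries was 0.0296.

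Ccr9, the receptor of Ccl25 on gut-homing and thymic T cells, had odor values of 5.23, 5.02, 4.98 and 4.45 in titled GFP+ and 3.12, 3.55, 4.01 and 3.86 in titled GFP-. In vehicle it read 5.30, 5.08, 4.30 and 4.89 against 3.80, 3.48, 4.61 and 3.40. The gap was narrower than for the receptors above, but the groups again did not overlap without vehicle pool 3. In all 16 libraries Ccr9 lay below the median of the array's negative control probe sets (5.46), so its signal was dim in both fractions. The difference was 1.29 ± 0.21 (SE, adjusted p = 0.00043) in odor and 1.53 ± 0.24 (adjusted p = 0.000386) in vehicle, and the odor adjusted p over 16 libraries was 0.0286.

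Cx3cr1, the receptor of Cx3cl1 on monocytes, macrophages and microglia, had odor values of 6.20, 6.63, 5.76 and 5.86 in titled GFP+ and 4.84, 5.79, 4.76 and 4.73 in titled GFP-. Its vehicle values were 6.57, 6.15, 4.56 and 5.45 against 4.74, 5.42, 6.04 and 5.59. The groups overlapped in both treatments: titled GFP- replicate 2 of odor lay above titled GFP+ replicate 3. It passed in odor alone, at 1.08 ± 0.30 (SE, adjusted p = 0.0233), and over 16 libraries it did not pass. In vehicle the difference was 0.81 (adjusted p = 0.173). The call in odor was lost without titled GFP+ replicate 1 or 2 or titled GFP- replicate 1, 3 or 4, and under quantile normalization (adjusted p up to 0.0868 over the alternatives).

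The other 11 receptors did not pass in either treatment. Their odor differences lay between -0.41 for Ccr10 and 0.63 for Cxcr5, the B cell follicle receptor of Cxcl13. The lymphoid receptors Ccr7 and Cxcr3 had odor differences of 0.24 and 0.14, adjusted p = 0.376 and 0.624. Ccr3, the eosinophil receptor, had 0.36 in odor and 0.19 in vehicle (adjusted p = 0.598 and 0.829).

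Of the 37 ligands, 9 were higher and 2 lower in titled GFP+ in odor, and 8 were higher and 1 lower in vehicle. Ccl9 and Ccl6 are rodent CC ligands of myeloid cells that act on Ccr1. Ccl9 had odor values of 9.97, 9.58, 8.10 and 7.53 in titled GFP+ and 4.35, 3.93, 4.03 and 3.73 in titled GFP-. In vehicle the values were 9.88, 9.35, 3.30 and 9.74 against 4.54, 3.91, 7.30 and 4.34. Ccl6 had odor values of 9.55, 8.88, 8.63 and 7.22 against 6.25, 6.15, 5.49 and 5.90. Both showed wide gaps between the fractions, and in both the titled GFP+ library of odor replicate 4 was the lowest of its 4. The Ccl6 vehicle values were 9.75, 8.91, 5.52 and 9.20 in titled GFP+ and 5.82, 6.51, 7.81 and 6.58 in titled GFP-. The Ccl9 difference was 4.79 ± 0.41 (SE, adjusted p = 6.59e-07) in odor and 5.39 ± 0.47 (adjusted p = 1.26e-06) in vehicle. For Ccl6 it was 2.62 ± 0.38 (SE, adjusted p = 0.000143) in odor and 2.98 ± 0.44 (adjusted p = 0.00019) in vehicle. The odor adjusted p over 16 libraries was 0.0316 for Ccl9 and 0.0455 for Ccl6.

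Cxcl2 (macrophage inflammatory protein 2) attracts neutrophils through Cxcr2. Its odor values were 8.63, 7.26, 7.82 and 5.86 in titled GFP+ and 4.42, 3.94, 4.36 and 4.00 in titled GFP-. Vehicle libraries stood at 7.52, 8.88, 3.84 and 7.74 against 4.45, 4.12, 5.29 and 4.42. No odor library of titled GFP- reached the lowest of titled GFP+, and the difference was 3.21 ± 0.44 (SE, adjusted p = 8.27e-05) in odor and 3.72 ± 0.51 (adjusted p = 9.44e-05) in vehicle; over 16 libraries the odor adjusted p was 0.0329. Cxcl1, printed above with the same 11 NF-kB letters, had odor values of 5.04, 4.29, 4.76 and 4.98 in titled GFP+ and 5.28, 4.44, 4.96 and 5.25 in titled GFP-. In vehicle it read 4.60, 4.65, 4.98 and 4.69 against 4.57, 4.84, 4.52 and 4.62. The Cxcl1 fractions overlapped, with differences of -0.21 in odor and -0.03 in vehicle (adjusted p = 0.581 and 0.964). For Cxcl3 they were 0.14 and 0.03 (adjusted p = 0.802 and 0.973). The group means of Cxcl1 lay between 4.65 and 4.98, below the median of the array's 5222 negative control probe sets (5.46), and those of Cxcl3 between 5.54 and 5.89.

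Ccl5 (RANTES) is made by T and natural killer cells among others. Its odor values were 6.74, 5.46, 4.60 and 5.12 in titled GFP+ and 3.25, 3.54, 3.72 and 3.41 in titled GFP-. Its vehicle values were 6.16, 5.95, 3.68 and 5.93 against 3.85, 3.77, 5.30 and 3.34. Titled GFP+ spread more widely in odor than in the 3 vehicle pools. The difference was 2.00 ± 0.33 (SE, adjusted p = 0.000418) in odor and 2.36 ± 0.38 (adjusted p = 0.000393) in vehicle, and the odor adjusted p over 16 libraries was 0.0423. Ccl3 (macrophage inflammatory protein 1 alpha), which acts on Ccr1, averaged 11.59 ± 0.52 (SD, n = 4) in titled GFP+ and 9.15 ± 1.45 (SD, n = 4) in titled GFP- of odor. Its titled GFP- libraries ranged from 7.91 to 10.94, and the highest of them was just above the lowest titled GFP+ library, 10.93. Its difference was 2.44 ± 0.53 (SE, adjusted p = 0.00469) in odor and 2.02 ± 0.61 (adjusted p = 0.0443) in vehicle; the vehicle call was lost in 9 of 14 fits that each left out 1 library, namely vehicle titled GFP+ replicate 1, 2 or 4, vehicle titled GFP- replicate 1 or 4, odor titled GFP+ replicate 1, 2 or 3, or odor titled GFP- replicate 4. It was also lost with a trend and robust variance (adjusted p = 0.0547). Over 16 libraries it did not pass. Ccl4, the close relative of Ccl3, differed by 0.23 in odor and 0.47 in vehicle and did not pass (adjusted p = 0.565 and 0.267).

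Ccl22 and Ccl17 are products of dendritic cells and macrophages that share the receptor Ccr4. Ccl22 had odor values of 5.59, 5.31, 5.70 and 5.08 in titled GFP+ and 3.58, 4.24, 3.83 and 4.44 in titled GFP-. In vehicle the values were 5.84, 6.30, 3.85 and 5.60 against 3.88, 3.88, 6.71 and 4.06. The fractions did not overlap outside vehicle pool 3, and the difference was 1.40 ± 0.21 (SE, adjusted p = 0.000195) in odor and 1.97 ± 0.24 (adjusted p = 3.4e-05) in vehicle. Ccl17 averaged 7.00 ± 0.12 (SD, n = 4) in titled GFP+ and 6.29 ± 0.18 (SD, n = 4) in titled GFP- of odor. Its difference was 0.71 ± 0.18 (SE, adjusted p = 0.0148) in odor and 0.93 ± 0.21 (adjusted p = 0.00658) in vehicle. The Ccl17 calls in both treatments were lost under quantile normalization (adjusted p = 0.0737 in vehicle), and the odor call also with centred arrays and without odor titled GFP+ replicate 1. Neither ligand passed over 16 libraries. Ccr4 did not pass (odor difference -0.34, vehicle difference 0.04).

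Cxcl12, the homeostatic ligand of Cxcr4, had odor values of 5.68, 6.49, 5.59 and 5.47 in titled GFP+ and 4.91, 4.59, 4.55 and 4.65 in titled GFP-. Vehicle libraries stood at 6.11, 5.30, 4.90 and 5.58 against 4.65, 4.25, 5.17 and 4.97. The odor groups did not overlap, and the difference was 1.13 ± 0.24 (SE, adjusted p = 0.00346) in odor and 1.04 ± 0.27 (adjusted p = 0.0196) in vehicle; the odor adjusted p over 16 libraries was 0.0305. The vehicle call was lost without titled GFP- replicate 1 or 2 or titled GFP+ replicate 1, and when arrays were centred on their medians (adjusted p up to 0.114). Cxcl16, a transmembrane ligand of Cxcr6, averaged 7.54 ± 0.05 (SD, n = 4) in titled GFP+ and 6.87 ± 0.25 (SD, n = 4) in titled GFP- of odor. It passed in odor at 0.67 ± 0.15 (SE, adjusted p = 0.00612) and not in vehicle (0.36, adjusted p = 0.243), nor over 16 libraries, and the odor call was lost with centred or quantile-normalized arrays (adjusted p up to 0.132).

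The 2 ligands that were lower in titled GFP+ were Cx3cl1 and Ccl11. Cx3cl1 (fractalkine) had odor values of 8.13, 8.26, 8.40 and 8.49 in titled GFP+ and 9.81, 8.92, 9.06 and 8.77 in titled GFP-. In vehicle it read 8.53, 8.27, 8.87 and 8.08 against 8.62, 8.59, 7.91 and 8.91. All 4 odor titled GFP+ libraries lay below all 4 of titled GFP-, and the difference was -0.82 ± 0.20 (SE, adjusted p = 0.0121). In vehicle it was -0.41 and did not pass (adjusted p = 0.33), as over 16 libraries. Without pool 3 the vehicle fractions of Cx3cl1 did not overlap either, with titled GFP+ again lower. Ccl11 (eotaxin), which calls eosinophils through Ccr3, averaged 4.06 ± 0.23 (SD, n = 4) in titled GFP+ and 4.54 ± 0.11 (SD, n = 4) in titled GFP- of odor, all below the negative control median. Its differences of -0.48 ± 0.14 (SE, adjusted p = 0.0306) in odor and -0.55 ± 0.16 (adjusted p = 0.0361) in vehicle did not pass with the pool as a block (adjusted p = 0.0504 and 0.0575), and the vehicle call was lost without any 1 of the 6 vehicle libraries and with a trend and robust variance (adjusted p = 0.0561). The odor call was lost without odor titled GFP+ replicate 1 or 2 or titled GFP- replicate 1, 2 or 3 (adjusted p up to 0.106).

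**Figure D2:**
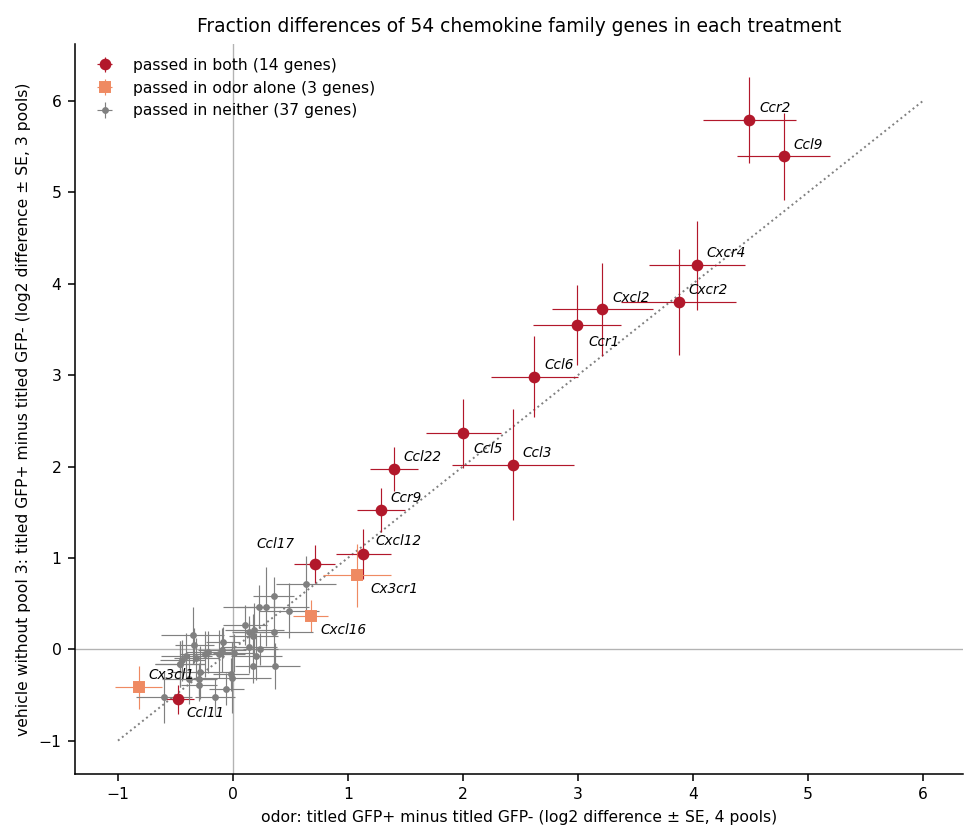
Difference between titled GFP+ and titled GFP- of each of the 54 genes in odor (horizontal axis, 4 pools) and in vehicle without pool 3 (vertical axis, 3 pools), in log2 units with bars of ± SE; colours mark genes that passed in both treatments, in odor alone or in neither, and the dotted line is equality. The 14 genes that passed in both run from Ccl11 below 0 to Ccl9 and Ccr2 at the upper right.

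All 14 genes that passed in vehicle without pool 3 were among the 17 that passed in odor, in the same direction. That is 82.4% of the odor list and 100% of the vehicle list. Pool 3 was left out with its opposite order known, and with it 0 genes passed in vehicle. The overlap is therefore not independent support, and the matching overlap over all genes is not given. Cx3cl1, Cx3cr1 and Cxcl16 passed in odor alone. The test of the difference between the treatments' fraction differences called none of the 54, so no gene is shown to differ between fractions more in one treatment than in the other. In odor, 16 of the 54 genes had fractions that did not overlap, 14 higher and 2 lower in titled GFP+, where 16.5% of all genes did not overlap (8.9% higher, 7.6% lower). In vehicle without pool 3 there were 22 such genes, 15 higher and 7 lower, where 27.6% of all genes did not overlap (12.6% higher, 14.9% lower); with pool 3 there was 1, Ccl20 (2.94% of all genes).

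Ligands and their receptors did not always differ together. Cxcl12 and Cxcr4 were both higher in titled GFP+, as were Cxcl2 and Cxcr2, while Cxcl1, which also binds Cxcr2, did not pass. Cx3cl1 was lower and Cx3cr1 higher in odor. Ccl2, the main ligand of Ccr2, had odor values of 5.41, 5.09, 5.01 and 5.61 in titled GFP+ and 5.39, 4.94, 5.39 and 4.97 in titled GFP-. Its vehicle values were 4.88, 5.25, 5.66 and 5.42 against 4.73, 4.79, 5.62 and 5.25. The Ccl2 fractions overlapped in both treatments, with differences of 0.11 in odor and 0.26 in vehicle (adjusted p = 0.798 and 0.537), beside 4.49 and 5.79 for Ccr2.

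Vehicle pool 3 and odor replicate 4 stood apart from the other pools for these genes. In vehicle pool 3 all 15 genes called higher in odor were lower in the titled GFP+ library than in the titled GFP- library, and both genes called lower were higher there. The median of the 15 genes' differences within a pool was 3.49, 1.92, 3.14 and 1.32 in odor pools 1 to 4 and 2.40, 2.39, -1.68 and 2.59 in vehicle pools 1 to 4. Odor titled GFP+ replicate 4 was the lowest of its group for 12 of the 15 genes, and replicate 1 the highest for 10 of the 15.

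**Figure D3:**
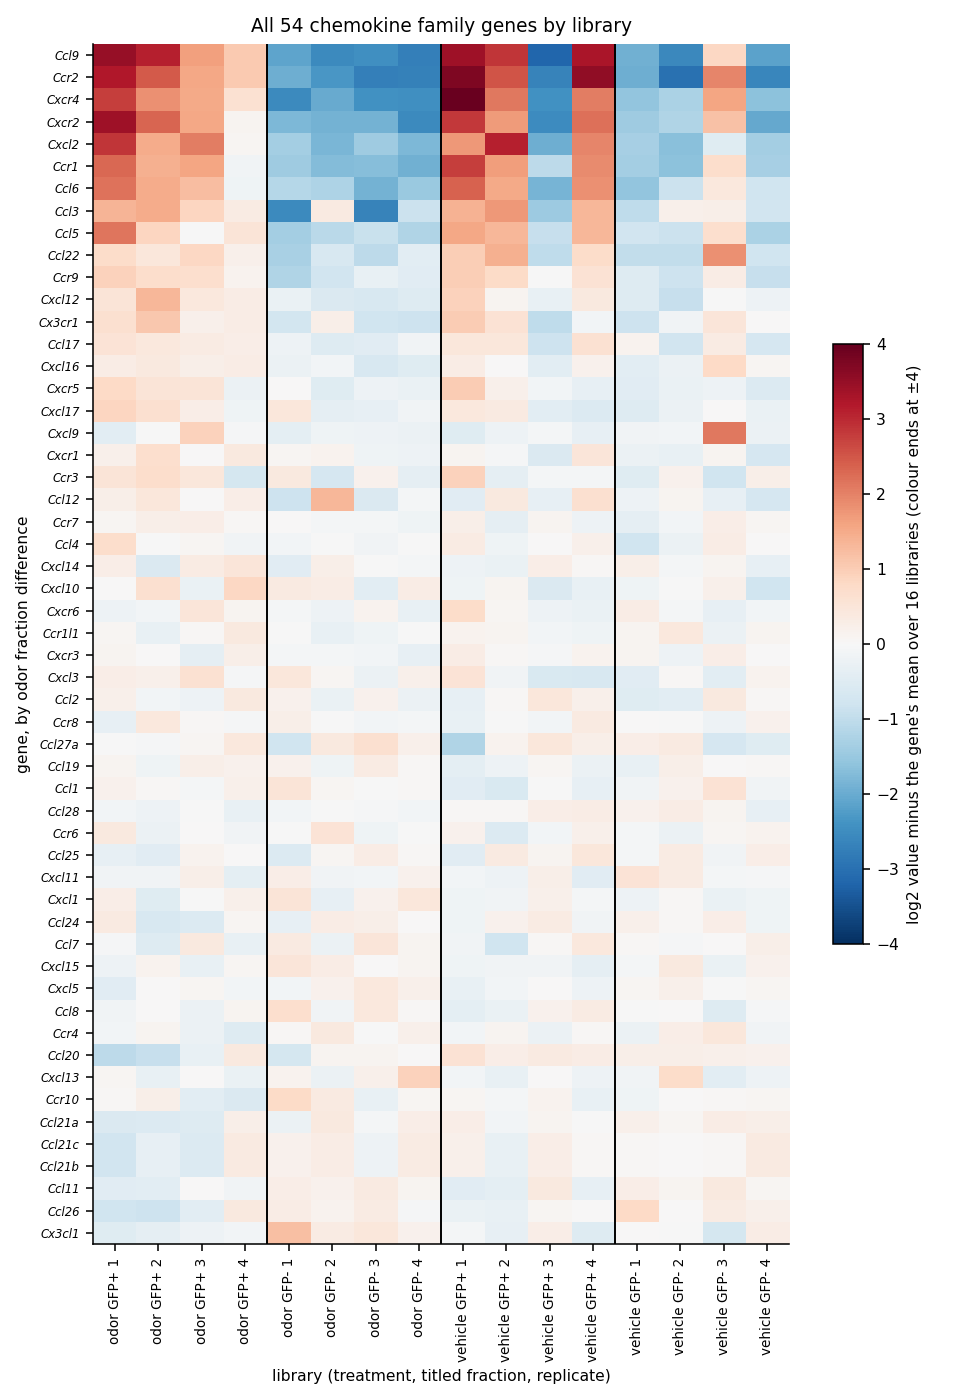
Log2 value of each of the 54 genes in each of the 16 libraries minus that gene's mean over all libraries, with genes ordered by the odor fraction difference and libraries by treatment, titled fraction and replicate. The upper genes are high (red) in titled GFP+ libraries except that of vehicle pool 3, and most genes below them stay near 0.

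Many chemokine genes lie side by side, and members of 1 stretch behaved differently. Neighbours were defined as genes of the family less than 200 kb apart in RefSeq's GRCm38.p6 table. Ccl21a and Ccl21c were left out because their probe sets lie on scaffolds outside the assembled chromosomes, so any run with them was not counted. Of the 52 genes that remained, 34 fell into 9 runs. On chromosome 11, 4 of the 5 genes of the run Ccl5, Ccl9, Ccl6, Ccl3 and Ccl4 were higher in titled GFP+ of odor. The other chromosome 11 run, Ccl2, Ccl7, Ccl11, Ccl12, Ccl8 and Ccl1, which holds monocyte and eosinophil attractants, had none higher and Ccl11 lower. On chromosome 5, Cxcl2 alone passed among Cxcl5, Cxcl3, Cxcl15, Cxcl1 and Cxcl2. None of the interferon-induced ligands Cxcl9, Cxcl10 and Cxcl11 passed (odor differences 0.36, 0.19 and -0.15). On chromosome 8, Ccl22 and Ccl17 were higher and Cx3cl1, which lies between them, was lower in odor. On chromosome 9, Ccr9, Ccr1 and Ccr2 were higher in a run that also holds Cxcr6, Ccr1l1 and Ccr3.

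**Figure D4:**
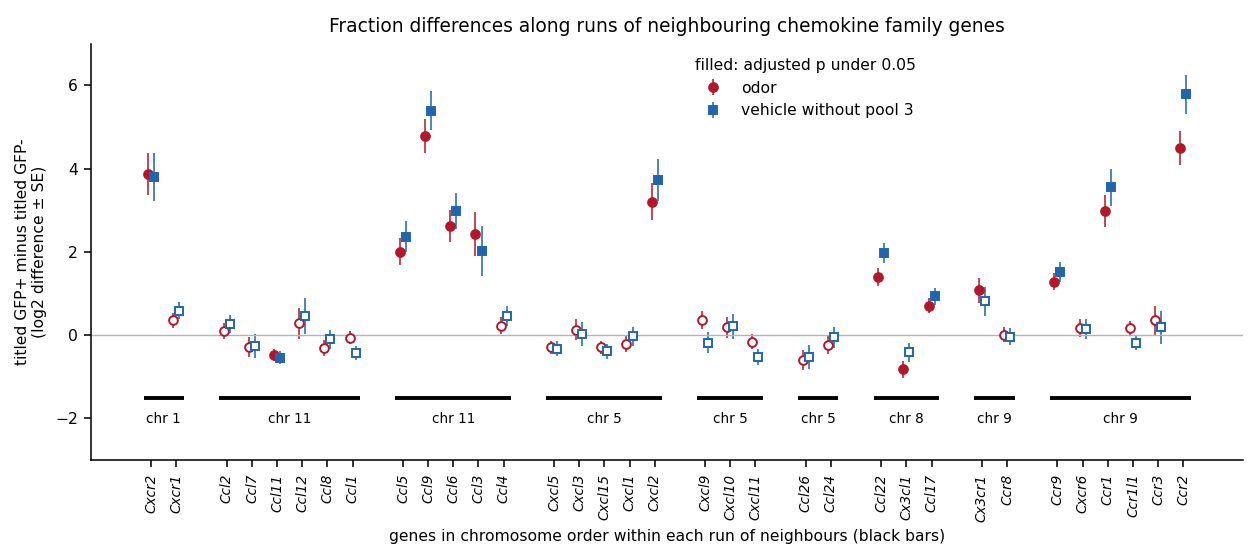
Difference between titled GFP+ and titled GFP- in log2 units (± SE) for the 34 genes that lie in 9 runs of neighbours, in chromosome order within each run (horizontal bars), for odor and for vehicle without pool 3; filled symbols passed at an adjusted p under 0.05. The second run on chromosome 11 has 4 filled odor points, and the first run on chromosome 5 has 1, Cxcl2.

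The remaining 37 genes passed in neither treatment, 26 ligands and 11 receptors, with odor differences from -0.60 to 0.63 and vehicle differences from -0.53 to 0.72. They include the lymphoid homing ligands Ccl19 and Ccl21a and the B cell attractant Cxcl13 (odor differences -0.02, -0.44 and -0.38; adjusted p = 0.97, 0.178 and 0.366). Ccl27a, an epithelial ligand of Ccr10, averaged 12.81 ± 0.22 (SD, n = 4) in titled GFP+ and 12.82 ± 0.64 (SD, n = 4) in titled GFP- of odor, a difference of -0.01 (adjusted p = 0.99). Ccl25, the ligand of Ccr9, differed by -0.12 in odor (adjusted p = 0.814), while its receptor was higher. Dim signal bears on these values: 41 of the 54 genes in titled GFP- of odor and 32 in titled GFP+ averaged below the negative control median, among them 10 and 2 of the 15 genes called higher. Over all libraries 20 of the 54 genes, and 11897 of all 19505, had means above that median. The 95th percentile of the negative control values was 9.79, and 2 of the 54 genes had means above it.

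The second comparison set odor against vehicle within each fraction, which asks what the odor pulses changed. No gene of the family passed. In titled GFP+ over 14 libraries limma called 0 of the 54, 5 had an unadjusted p under 0.05, and 0.0359% of all genes were called; over 16 libraries it called 0 (0% of all genes), with 4 at an unadjusted p under 0.05. The smallest p was that of Ccl1, a T cell ligand of Ccr8. Its odor values in titled GFP+ were 3.86, 3.74, 3.61 and 3.89 and its vehicle values 3.22, 3.07, 3.65 and 3.36, all below the negative control median. Without vehicle pool 3 the treatments did not overlap, and the difference of 0.56 had an adjusted p of 0.361. Ccr2 had the smallest p among receptors, with -1.22 in odor relative to vehicle (adjusted p = 0.511), its titled GFP+ values of odor replicates 1 and 2 lying within or near the vehicle range given above. Of the 54 genes, 3 did not overlap between treatments in titled GFP+ (7.72% of all genes).

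In titled GFP- over 14 libraries limma called 0 of the 54, and 0 had an unadjusted p under 0.05, with 0.0256% of all genes called. Over 16 libraries it called 0, with 1 gene, Cx3cl1, at an unadjusted p under 0.05 and 0.0103% of all genes called. The smallest p over 14 libraries was that of Ccr1l1, a receptor gene next to Ccr1. Its titled GFP- values were 3.09, 2.79, 2.92 and 3.07 in odor and 3.21, 3.52, 2.88 and 3.21 in vehicle, with -0.34 as the difference (adjusted p = 0.693). In titled GFP+ it stood at 3.17, 2.79, 3.14 and 3.48 in odor and 3.24, 3.21, 3.00 and 2.94 in vehicle, so the treatments overlapped there. Cx3cl1 came next, 0.43 higher in odor (adjusted p = 0.693). Of the 54 genes, 4 did not overlap between treatments (8.1% of all genes).

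The third comparison asked whether the fraction difference itself changed with odor. Over 14 libraries limma called 0 of the 54, 0 had an unadjusted p under 0.05, and 0.0103% of all genes were called. The smallest p was that of Ccr2, whose fraction difference was 1.30 smaller in odor than in vehicle (difference -1.30, adjusted p = 1). Over 16 libraries limma called 0, with 2 at an unadjusted p under 0.05 (0.00513% of all genes called), the smallest being Cxcl16 (adjusted p = 0.999).

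Genes that act with the family but carry other names were counted from a list of 30, of which 28 were measured: atypical receptors, G protein subunits, and enzymes and adaptors of migration. In odor 12 of the 28 were higher in titled GFP+ and none was lower (10 over 16 libraries), where 8.59% of all genes were higher (4.57% over 16 libraries). The median difference was 0.69 beside -0.08 for all genes. In vehicle without pool 3, 14 were higher and 1, the phospholipase gene Plcb3, was lower, where 7.86% of all genes were higher and 3.32% lower. The vehicle median was 0.86 beside -0.10 for all genes. Pik3cg, the phosphoinositide kinase driven by G protein subunits in leukocytes, differed by 5.08 ± 0.43 (SE, adjusted p = 5.55e-07). Rac2, the GTPase of blood cells that drives migration, differed by 5.73 ± 0.55 (adjusted p = 2.1e-06). Gnai2, the inhibitory G protein subunit through which chemokine receptors signal, differed by 4.33 ± 0.41 (adjusted p = 1.87e-06), and Gng2, a G protein gamma subunit, by 3.63. None of the 28 passed between odor and vehicle in either fraction.

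Of 16 inflammatory cytokines and NF-kB regulators listed, 15 were measured. In titled GFP+ of odor 6 were higher and none lower (5 over 16 libraries, 5 in vehicle without pool 3). Among all genes 8.59% were higher in odor (4.57% over 16 libraries) and 7.86% in vehicle without pool 3. The list's median difference was 0.46 in odor and 0.72 in vehicle, beside -0.08 and -0.10 for all genes. Il1b, the cytokine that induces Cxcl2 and other ligands, differed by 4.64. Tnf, the other leading inducer, differed by 2.85. Tnfaip3 and Nfkbiz, which NF-kB induces and which regulate it in turn, differed by 2.87 and 1.36. The granulocyte factor Csf3 and the subunits Rela and Relb did not pass. None of the 15 passed between odor and vehicle in either fraction.

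Markers of leukocytes moved with the chemokine genes. All 11 measured neutrophil markers were higher in titled GFP+ of odor, as in vehicle without pool 3, and their mean level was 10.35 to 13.54 in titled GFP+ libraries of odor and 4.48 to 5.91 in titled GFP-. Monocyte and macrophage markers were higher for 6 of 11 (mean level 7.59 to 8.80 against 5.65 to 6.75; 4 over 16 libraries, 5 in vehicle without pool 3), and lymphoid markers for 6 of 9 (5.36 to 6.79 against 4.44 to 4.83; 3 over 16 libraries, 5 in vehicle without pool 3). Among all genes 8.59% were higher in odor (4.57% over 16 libraries) and 7.86% in vehicle without pool 3. The median difference of the monocyte and macrophage markers was 1.26 in odor and 0.45 in vehicle without pool 3, and they differed widely among themselves. Lyz2 stood at 14.61, 14.40, 13.69 and 12.33 in titled GFP+ of odor and at 8.19, 9.83, 7.33 and 8.64 in titled GFP-. Fcgr1 stood at 5.77, 5.39, 5.07 and 5.38 against 5.89, 5.33, 4.90 and 5.37. Ptprc, which encodes CD45 and marks leukocytes in general, had odor values of 11.54, 10.66, 10.44 and 8.99 in titled GFP+ and 6.03, 6.09, 5.40 and 5.48 in titled GFP-. In vehicle pool 3 Ptprc stood at 5.42 in titled GFP+ and 9.54 in titled GFP-, the same turn as the chemokine genes. The 54 genes averaged 5.40 to 5.75 in titled GFP+ of odor and 4.89 to 5.01 in titled GFP-.

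Sustentacular cell markers were higher for 6 of 8 in odor (10.11 to 11.51 against 7.85 to 9.22; 4 over 16 libraries), and for 4 of 8 in vehicle without pool 3. In vehicle pool 3 their mean level was 8.28 in titled GFP+ and 10.25 in titled GFP-, the same turn as the leukocyte markers. The shares of all genes were 8.59% higher and 4.59% lower in odor, and 7.86% and 3.32% in vehicle without pool 3. Over 16 libraries they were 4.57% and 2.39% in odor. Of 10 markers of mature olfactory sensory neurons, none was higher and 2, Ano2 and Umodl1, were lower in odor (Ano2 alone over 16 libraries and in vehicle without pool 3; adjusted p of Umodl1 0.056 and 0.475), and their mean level was 17.15 to 17.33 against 17.37 to 17.46; the defining neuron markers of the labelled tissue were thus present in both fractions. None of 6 endothelial markers passed, and of 5 fibroblast markers Dcn alone was higher in odor (none over 16 libraries, adjusted p of Dcn 0.126, or in vehicle without pool 3, 0.621). The part of leukocytes and of sustentacular cells in the chemokine result was not tested.

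**Figure D5:**
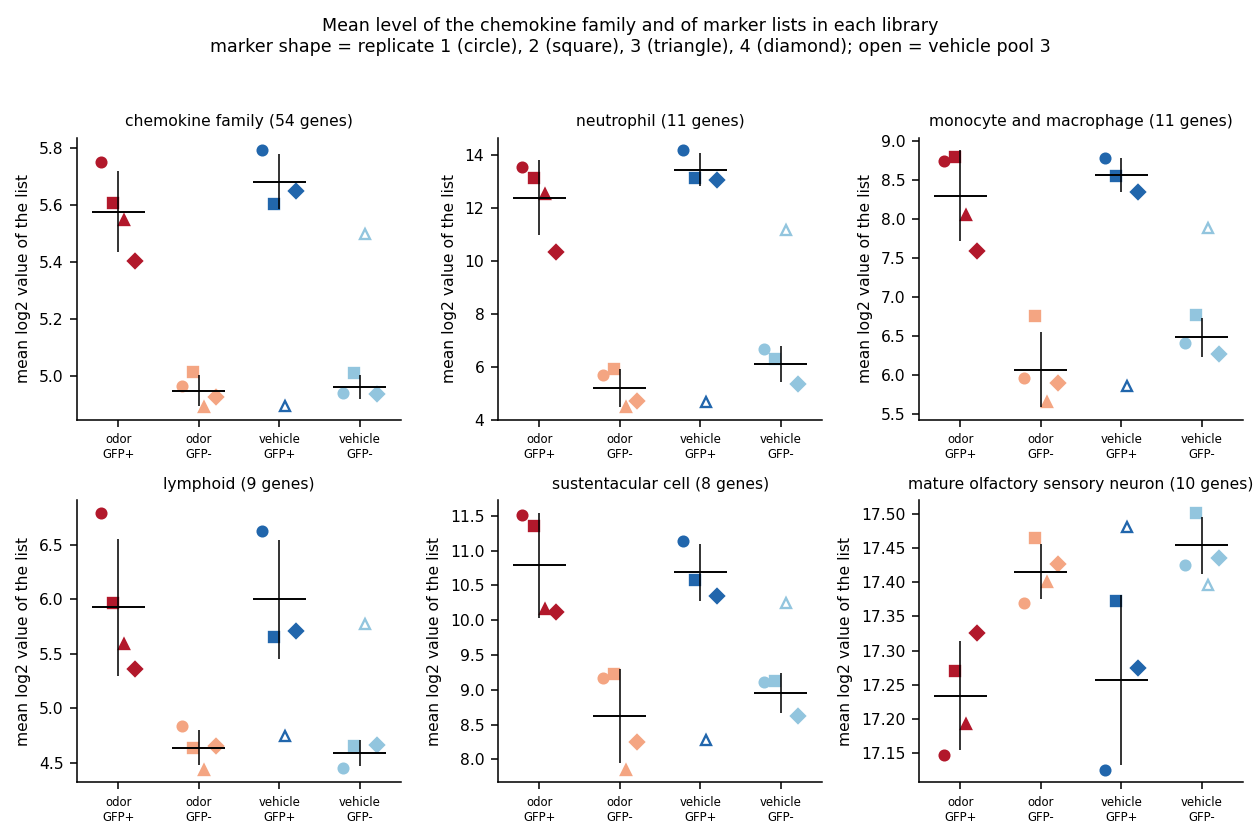
Mean log2 value of the 54 chemokine family genes and of 5 marker lists in each library, by treatment and titled fraction; marker shapes give replicates, open triangles are vehicle pool 3, and black lines and bars are the mean ± SD without that pool. The neutrophil, monocyte, lymphoid and sustentacular lists show the order of the chemokine family, vehicle pool 3 included, and the neuron list runs the other way.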

How the data were processed

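Arrays from Affymetrix were run on 16 libraries, 2 sorted fractions of each of 8 pools of 3 mice. The deposited table holds log2 values, for which the submitters' processing notes name Affymetrix Expression Console; no version, summarization method or build was found in the sources used here. Labelled RNA came from 50 to 100 ng of total RNA, per the labels. Values ran from 1.69 to 19.40. A 16-bit scanner cannot pass 16 on this scale, so an unknown step has stretched it, and differences are not given as folds. Array medians were 6.13 to 6.45. Precision depends on the spread within groups as well as on the number of arrays. With the pool as a block, the SE of the Ccr2 odor difference was 1.56 over 16 libraries and 0.22 over 14.

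Of 28846 probe sets, 6640 were controls and were left out, 19572 had 1 gene symbol in the platform annotation and 2634 had none listed; a gene took its probe set with the highest mean, which gave 19505 genes. Means of 4 groups were fitted with limma 3.58.1 in R 4.3.3 (lmFit, eBayes; tested on simulated data), two-sided, with Benjamini-Hochberg adjustment over all genes and a threshold of 0.05, over all 16 libraries and over 14 without vehicle pool 3. Groups follow the sample titles. Same-numbered fractions of a treatment come from the same mice and pair by design. Their deviations from the group means over all 16 libraries correlated at 0.16, 0.15, 0.25 and 0.13 in odor pools 1 to 4 and at -0.42, -0.06, -0.75 and -0.33 in vehicle pools. The vehicle means include pool 3, which ran opposite and shifts the fraction means in opposite directions. The vehicle values therefore cannot show how paired libraries varied together. Numbers shared by odor and vehicle pair nothing. Alternatives were the pool as a block (the replicate number between treatments), centring on array medians, quantile normalization, leaving out dim probe sets, averaging probe sets, a trend and robust variance, and leaving out each library. Values in every library are given for the 6 receptors and 6 ligands with the smallest p in odor, for the smallest p of each other comparison and for 5 ligands with known receptors; members that passed are named. Genes, lists and the 14-library set were chosen with earlier results of these data known. The NF-kB letters searched in promoters were set after a form 1 letter longer had been searched.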

Additional observations from a re-analysis of the deposited data

Results flagged for a closer look

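Within groups of 4 libraries, 8 of 72 sets of values, over 18 genes, had a library whose gap to the nearest of the others exceeded Dixon's critical value; chance alone gives about 1 in 20. Vehicle pool 3 supplied 6 of the 8. In its titled GFP- library Cxcr4 was at 9.69 (others 6.50 to 6.85), Ccr1 at 5.94 (others 3.58 to 3.90), Ccl22 at 6.71 (others 3.88 to 4.06) and S100a5 at 14.99 (others 16.27 to 16.44). In its titled GFP+ library Ccl9 was at 3.30 (others 9.35 to 9.88) and Ccl5 at 3.68 (others 5.93 to 6.16). The other two were odor titled GFP- libraries: Cxcr2 was at 4.41 in replicate 4 (others 5.07 to 5.18), and Cx3cr1 was at 5.79 in replicate 2 (others 4.73 to 4.84). No cause was tested.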

How the results depend on the processing

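Counts of called genes in the odor fraction comparison over 16 libraries (10 of 54) moved to 0 with the replicate block, 21 with centred arrays, 3 with a trend and robust variance and 17 without vehicle pool 3, and ranged from 0 to 15 when 1 library was left out. The matching counts over all genes, for the block over 16 libraries and for centred arrays, stand with the first comparison above. With a trend and robust variance 571 of all genes were higher and 325 lower. The count of 15 came without vehicle titled GFP+ replicate 3, where 1445 of all genes were higher and 739 lower. Over 14 libraries the odor count (17) moved to 31 with centred arrays and 11 with dim genes left out, where fewer genes were tested, and ranged from 14 to 22 when 1 library was left out. The vehicle count over 16 libraries (0) moved to 14 without pool 3 and ranged from 0 to 10 when 1 library was left out. Over 14 libraries the vehicle count (14) moved to 8 with dim genes left out and ranged from 11 to 14. With dim genes left out, 1269 of all genes tested were higher and 744 lower in odor, and 1180 and 586 in vehicle. The odor count of 22 came without odor titled GFP+ replicate 4, where 1717 of all genes were higher and 892 lower. The replicate block over 14 libraries gave 16 calls in odor and 13 in vehicle, losing Ccl11 alone. Both comparisons of odor with vehicle and the difference of fraction differences gave 0 calls in the family under every alternative run. Of the values of single genes under the alternatives, 1674 kept their direction and side of the threshold, 141 fell short of it, 52 newly passed it and 24 changed sign; where no construction is named, the cause was not tested.

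None of the values that changed sign had passed the test. Ccl1 in odor went to 0.0135 (16 libraries) and 0.0136 (14 libraries) with quantile normalization, and ranged from -0.1164 to 0.0629 when 1 library was left out. Ccl2 in odor went to -0.2428 with centred arrays and to -0.0978 (16 libraries) and -0.098 (14 libraries) with quantile normalization, and ranged from -0.0025 to 0.1962 when 1 library was left out; in vehicle over 14 libraries it went to -0.0917 with centred arrays. Ccr1l1 in odor went to -0.1745 with centred arrays. In vehicle over 16 libraries, leaving out 1 library gave -0.2701 to 0.0631 for Cx3cl1, -0.0572 to 0.613 for Cx3cr1 and -0.1968 to 0.213 for Cxcl16, and leaving out pool 3 gave 0.3617 for Cxcl16 and -0.0276 for Cxcl1. Cxcl1 also went to -0.0949 with centred arrays and, over 14 libraries, ranged from -0.0812 to 0.0549. The Ccr2 difference of differences over 16 libraries ranged from -0.1877, without vehicle titled GFP+ replicate 3, to 1.9487, and was -1.3029 without pool 3.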
